A study of Mus musculus with 18 samples.

Results

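The genes described here are 9 mouse genes that store iron, carry it, take it up, export it or set its level through the hormone hepcidin: Hamp, Hamp2, Tfr2, Tfrc, Trf, Fth1, Ftl1, Slc40a1 and Hmox1. They were chosen by name, and every probe annotated with 1 of these symbols was taken, which gave 9 of the 19057 annotated genes and 14 of the 45281 probes on the array. Of the 14 probes, 12 passed the filter on dim probes, and each of the 9 genes kept at least its brightest probe, which stands for the gene below. The 2 probes that did not pass were the dimmer probes of Ftl1 and Slc40a1, detected on 0 of 18 arrays.

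The series holds 18 Illumina bead arrays, 3 in each of 6 groups. Per the labels, tumour-inducing cells carrying the surface protein CDCP1 were taken with antibody-coated MicroBeads from colon tumours of 3 mice (labels FatK1, FatK5 and FatK7, called labels 1, 5 and 7 here). Each mouse was 17 weeks old, of strain C57Bl/6 and of the same genotype, which includes Fapbl-Cre and the Apc allele Apc2lox14/+, so the untreated cells carried the same alleles and were kept with Dox like the others. In each mouse label, 1 group was given a short hairpin RNA (shRNA) against the transcription factor Foxd3 for 24 h and the other was left untreated. Each mouse label names 1 animal, so a difference between labels has no replicate animals behind it. Whether a group's 3 arrays stand for separate cultures is not stated, so its p-values measure array-to-array spread alone. That spread may be technical, except in the untreated groups of labels 1 and 5, whose arrays carried transcripts of different sexes, as given below.

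Iron enters most cells as transferrin, made from Trf, bound to the transferrin receptor Tfrc, is held inside cells in shells of ferritin heavy and light chains (Fth1 and Ftl1), and leaves through the exporter ferroportin (Slc40a1). The liver hormone hepcidin, made from Hamp, binds ferroportin and has it degraded, and Tfr2 is one of the liver proteins that report iron-loaded transferrin to the Hamp gene. Haem oxygenase 1 (Hmox1) frees iron from haem, a main task of macrophages that take up old red cells.

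Most defining transcripts of colon epithelium were not detected or dim, and those of other tissues were bright. Of 10 intestinal epithelium markers, 1, 1 and 3 were detected on all 6 arrays of labels 1, 5 and 7, and their summed signals were 362 to 1058 in label 1, 73.8 to 287.5 in label 5 and 5382 to 10661 in label 7. These sums include Fabp2, which averaged 127, 132 and 106 on the untreated arrays of labels 1, 5 and 7. Its detection p-values nevertheless counted it as detected on 0 of 18 arrays. Epcam, an epithelial surface protein, was detected on 0 of 18 arrays, while the lectin gene Lgals4 was detected on all 18 and Cdh1 and Krt8, which liver epithelium also expresses, on all 6 of label 7 (averages of 357 and 6147). Of 10 hepatocyte markers, 9 were detected on all 6 arrays of label 7 and 1 in each of labels 1 and 5. Their summed signals were 68583 to 90084 in label 7, against 49.6 to 121 in label 1 and 45.0 to 121 in label 5. Among them Tat was dim in every label (averages of 22.9, 21.5 and 18.6 in labels 1, 5 and 7), and Alb averaged only 40.0 in label 7. Label 5 carried all 10 skeletal muscle markers on all 6 arrays and label 1 carried 8 of 10 brown fat markers. The labels shared these lists in part. Label 1 carried 3 muscle markers on all 6 arrays and all 10 on its 3 treated arrays. Labels 5 and 7 carried 4 and 2 brown fat markers on all 6 arrays. In labels 1 and 5 the 3 treated arrays and untreated array 2 carried Xist, which marks a female source. Untreated arrays 1 and 3 there carried Eif2s3y, which marks a male source, although each label names 1 mouse. All 6 arrays of label 7 carried Eif2s3y (signals of 328 to 413) and not Xist. Differences between untreated label 7 and labels 1 or 5 thus set male arrays against groups of mixed sex. Foxd3 itself was detected on 1 of 18 arrays, so the depletion of the target could not be read. Transcripts of Cdcp1, the surface protein named by the labels, were at or near background on every array, with a highest signal of 17.2. The protein was not measured. In bulk RNA of this kind, fewer cells of a type and less RNA per cell cannot be told apart.

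Hamp and Hamp2 are closely related neighbouring genes for hepcidins, and the windows before their start sites are shown because the 2 genes were present or near background in the same mouse labels. The sequences are the 250 bases before each annotated start in the RefSeq promoter table, mouse build GRCm38.p6, minus strand, at chr7:30944030-30944279 for Hamp and chr7:30924182-30924431 for Hamp2. Capitals mark a hexamer known in Hamp as a site for SMAD proteins, which answer to bone morphogenetic proteins (BMPs), and a run of 9 letters matching TTCNNNGAA, the pattern read by STAT3.
Hamp: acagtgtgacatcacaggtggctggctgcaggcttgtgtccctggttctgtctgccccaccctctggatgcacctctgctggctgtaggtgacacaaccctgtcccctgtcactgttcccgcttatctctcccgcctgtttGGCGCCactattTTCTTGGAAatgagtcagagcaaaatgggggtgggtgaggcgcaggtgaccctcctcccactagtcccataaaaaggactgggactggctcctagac
Hamp2: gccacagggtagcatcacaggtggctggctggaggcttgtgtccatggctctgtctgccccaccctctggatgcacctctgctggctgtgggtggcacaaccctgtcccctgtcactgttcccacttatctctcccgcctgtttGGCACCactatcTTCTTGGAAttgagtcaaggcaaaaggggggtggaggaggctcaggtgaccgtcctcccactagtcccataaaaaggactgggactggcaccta
Aligned without the unmatched ends, 227 of 247 bases were identical (91.9%). The hexamers differ by G4A, with Hamp first and positions counted from 1 at the hexamer's 5′ end, so the letters GGCGCC stand in Hamp and GGCACC in Hamp2. The hexamer starts 109 bases before the start site in Hamp and 106 bases before it in Hamp2, and the letters TTCTTGGAA start at 97 and 94 bases. Searched on both strands, GGCGCC occurred in 9.59% and TTCNNNGAA in 7.02% of 32851 windows of the same length. Of the 9 genes, 6 had windows in the table, and outside Hamp the letters GGCGCC occurred only in 1 of the Tfrc windows.

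Hamp, the gene of the hormone hepcidin, was among the brighter probes of label 7 and near background elsewhere. In label 7 its signals were 13717, 15644 and 10353 on the untreated arrays and 16250, 15081 and 10610 on the treated arrays. In label 1 they were 4.73, 5.34 and 5.09 untreated and 12.3, 6.49 and 3.62 treated, and the probe was detected on 0 of these 6 arrays. In label 5 they were 9.71, 6.25 and -3.22 untreated and 15.3, 5.65 and 31.8 treated, with 2 of the treated arrays detected. All 6 arrays of label 7 thus lay far above the other 12. Between untreated cells, Hamp was at least 374-fold higher in label 7 than in label 1 (adjusted p = 5.99e-18) and at least 393-fold higher than in label 5 (adjusted p = 5.73e-18, limma). These are lower bounds for the processing used, since they set the bright group against the dimmest signal that counted as detected on the arrays of the other. The fitted log2 difference ran from 7.54 to 11.16 against label 1 and from 7.55 to 11.86 against label 5 over 16 alternatives. Hamp met the filter on dim probes only through label 7, the group where it was high.

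Hamp2 followed the same division of the labels. Its signals in label 7 were 3947, 8733 and 5117 untreated and 3047, 3572 and 2833 treated. In label 1 they were 16.04, 16.1 and -0.12 untreated and 23.9, 6.74 and 3.44 treated, with 3 of 6 arrays detected. In label 5 they were -0.59, 31.5 and 17.3 untreated and 8.51, -0.45 and 23.7 treated, again with 3 of 6 detected. The lowest array of label 7 was far above the highest of the other labels. The untreated difference was fitted at 7.11 ± 0.28 (log2, moderated SE) against label 1 (adjusted p = 5.51e-14) and 6.99 ± 0.28 against label 5 (adjusted p = 6.11e-14). In each of the dim groups 2 of 3 untreated arrays detected the probe, and the size moved with the processing, from 6.04 to 9.41 against label 1 and from 5.98 to 9.11 against label 5 over 16 alternatives, all of which passed. Since the genes are closely related, how far each probe also binds the other's transcript is not known from the files.

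Tfr2, the receptor that reports iron-loaded transferrin in the liver, was the third gene near background outside label 7. Its brightest probe gave 1138, 1238 and 944 untreated and 1348, 1149 and 1013 treated in label 7. It gave 10.8, 9.47 and 12.5 untreated and 30.9, 14.0 and 11.8 treated in label 1, where it was detected on 4 of 6 arrays. It gave 16.8, 29.1 and 13.6 untreated and 14.1, 21.2 and 19.6 treated in label 5, also detected on 4 of 6. No array of labels 1 or 5 came near those of label 7. The untreated difference was fitted at 4.81 ± 0.16 against label 1 (adjusted p = 5.61e-15) and 4.61 ± 0.16 against label 5 (adjusted p = 9.30e-15). Here too 2 of 3 untreated arrays in each dim group detected the probe, and over 16 alternatives, all of which passed, the size ran from 3.76 to 6.28 and from 3.62 to 5.62. The second Tfr2 probe, detected only on the 6 arrays of label 7 with signals of 140 to 194, was at least 5.38-fold and at least 5.65-fold higher there. It met the filter on dim probes only through those arrays.

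Trf, which encodes the iron carrier of the blood plasma, was detected on 18 of 18 arrays and was the brightest probe of all 45281 on at least 1 array. In label 7 its signals were 25363, 27699 and 21944 untreated and 22337, 22288 and 21634 treated. In label 1 they were 300.3, 206 and 229.7 untreated and 490.2, 564 and 678 treated. In label 5 they were 194, 168 and 168 untreated and 151, 236 and 97.4 treated. Label 7 was high on every array, and within label 1 the treated arrays lay above the untreated ones. The untreated difference was 6.45 ± 0.24 against label 1 (adjusted p = 2.60e-14) and 6.98 ± 0.24 against label 5 (adjusted p = 6.89e-15).

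**Figure D1:**
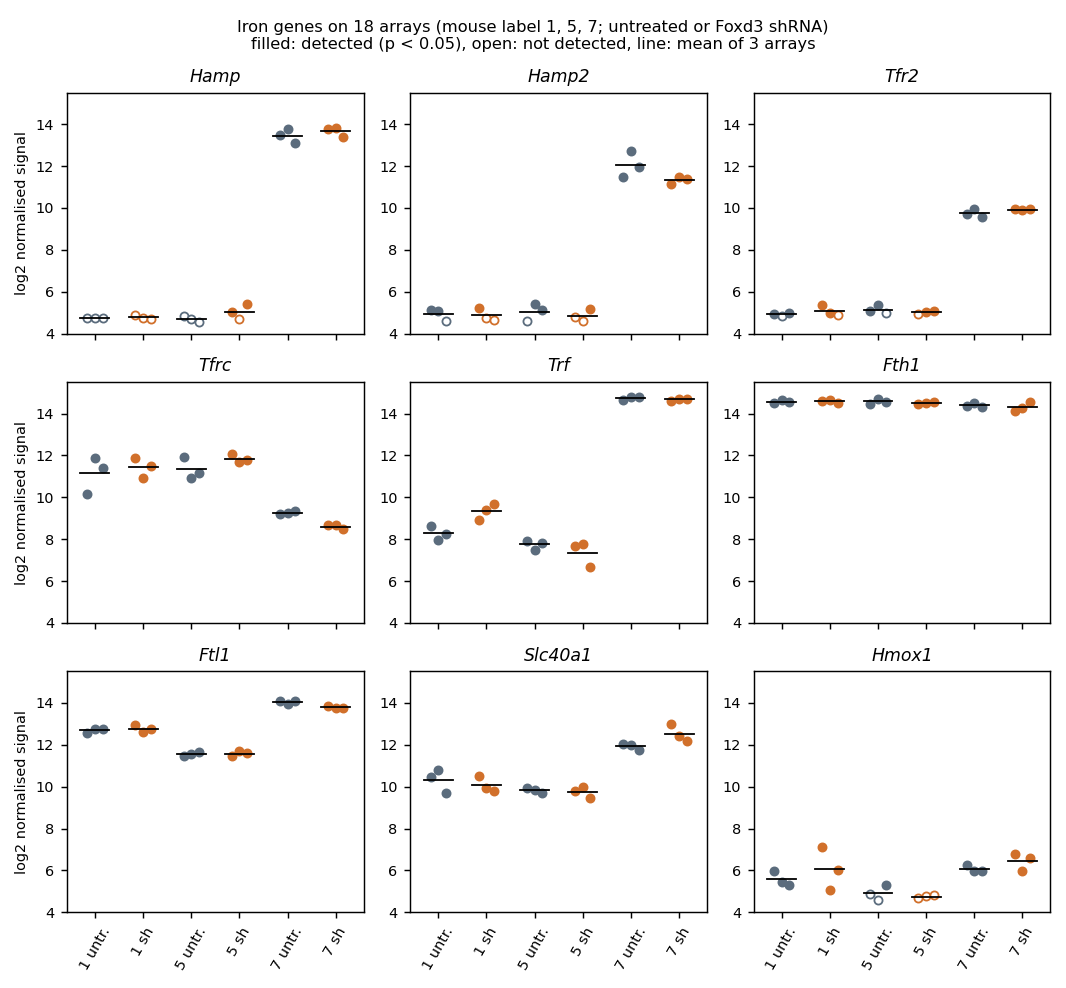
Normalised log2 signal (vertical axis) of the brightest probe of each of the 9 iron genes on the 18 arrays, by mouse label and arm (untreated or Foxd3 shRNA). Each point is 1 array, open where the probe was not detected, and each line is the mean of 3 arrays; Hamp, Hamp2, Tfr2 and Trf stand far above the other labels in label 7, Tfrc stands below them, and Fth1 is level.

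Tfrc, the receptor that takes transferrin-bound iron into cells, ran the other way. Its signals in label 7 were 777, 719.9 and 819 untreated and 541, 447 and 324 treated. In label 1 they were 852, 3017 and 2015 untreated and 3696, 1686 and 2428 treated, a wide spread within both arms. In label 5 they were 3025, 1855 and 1667 untreated and 3295, 3314 and 3417 treated. Every array of label 7 was below every array of labels 1 and 5. Untreated label 7 was lower than label 1 by a log2 difference of -1.88 ± 0.33 (adjusted p = 6.75e-05) and lower than label 5 by -2.07 ± 0.33 (adjusted p = 1.84e-05). The second Tfrc probe gave -2.02 and -2.23 for the same comparisons, and the 2 probes followed each other over the 18 arrays (Pearson r = 0.997, a description).

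The 2 ferritin chains differed from each other in pattern. Ftl1, the light chain, had signals of 18915, 17415 and 16077 in untreated label 7 and 17010, 14813 and 12778 in treated label 7. In label 1 they were 4801, 6053 and 5579 untreated and 7930, 5610 and 6344 treated. In label 5 they were 2255, 2862 and 2413 untreated and 2061, 3376 and 3060 treated. The 3 labels did not overlap on any array, with label 7 highest and label 5 lowest. The untreated differences were 1.34 ± 0.10 for label 7 against 1 (adjusted p = 1.88e-09), 2.46 ± 0.10 for label 7 against 5 (adjusted p = 1.49e-13) and -1.12 ± 0.10 for label 5 against 1 (adjusted p = 3.86e-08).

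Fth1, the heavy chain that oxidises iron for storage, stayed near the top of every array. Its brightest probe ranked between 2 and 65 of 45281 on each array, and its signals spanned 17489 to 28552 over all 18. Untreated arrays held 22544, 25686 and 23185 in label 1, then 22313, 28093 and 22512 in label 5, and 21323, 22985 and 17489 in label 7. The groups overlapped, and this probe did not pass the test in any comparison: label 7 against 1 gave -0.16 ± 0.10 (adjusted p = 0.194) and label 7 against 5 gave -0.17 ± 0.10 (adjusted p = 0.159). The second Fth1 probe passed, with -0.38 ± 0.14 (adjusted p = 0.0231) and -0.41 ± 0.14 (adjusted p = 0.0133), so the Fth1 probes disagree on the call while sharing the sign (r = 0.866 over 18 arrays). With the mean of its probes taken for each gene, Fth1 passed in both comparisons, at -0.27 (adjusted p = 0.0483) and -0.29 (adjusted p = 0.0320). Whether such bright beads were saturated is not recorded in the files, and ferritin genes have many processed copies in the genome whose transcripts the probes may share.

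Slc40a1, the iron exporter ferroportin, was detected on every array and was highest in label 7. Its signals there were 5909, 5325 and 4485 untreated and 9877, 6547 and 4848 treated. In label 1 they were 1030.4, 1408 and 606 untreated and 1418, 827 and 734 treated. In label 5 they were 782, 883 and 610.3 untreated and 658, 1060.3 and 702 treated. The lowest array of label 7 was above the highest of the other labels. The untreated difference was 1.62 ± 0.25 against label 1 (adjusted p = 1.81e-05) and 2.11 ± 0.25 against label 5 (adjusted p = 5.01e-07). Of 9 measured macrophage and Kupffer cell markers, 9 were detected on all arrays of label 7 and 4 each in labels 1 and 5, with summed signals of 5099 to 11849 in label 7, 891 to 2225 in label 1 and 629 to 2200 in label 5. The Kupffer cell markers Clec4f and Marco averaged 809 and 406 in label 7 (626 and 122 on its untreated arrays). They were detected on 1 and 0 of 6 arrays in each other label. Cd163 of the same list did not follow, with averages of 82.1, 69.7 and 75.8 in labels 1, 5 and 7. The part of these markers in the Slc40a1 level was not tested.

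Hmox1 was dim throughout. Its signals were 42.2, 28.8 and 20.4 untreated and 134, 17.2 and 50.4 treated in label 1. They were 11.5, -2.71 and 21.5 untreated and 3.59, 9.75 and 10.1 treated in label 5, where the probe was detected on 1 of 6 arrays. They were 72.4, 45.0 and 47.6 untreated and 123, 45.1 and 64.2 treated in label 7. Labels 1 and 7 overlapped, and the untreated difference between them did not pass (0.49 ± 0.35, adjusted p = 0.247), while label 7 was higher than label 5 with a fitted difference of 1.15 ± 0.35 (adjusted p = 0.00768). Since 1 of 3 untreated arrays of label 5 detected the probe, that size is loosely set, and it ran from 0.65 to 3.21 over 16 alternatives, all of which passed.

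Counted together, 7 of the 9 genes passed the test between untreated labels 7 and 1, namely 6 higher (Hamp, Hamp2, Tfr2, Trf, Ftl1 and Slc40a1) and 1 lower (Tfrc). In that comparison 55.9% of all 24817 tested probes passed, 25.1% higher and 30.8% lower. Between untreated labels 7 and 5, 8 of 9 passed, 7 higher (the same 6 and Hmox1) and 1 lower (Tfrc), against 63.6% of all probes, 30.8% higher and 32.8% lower. Between untreated labels 5 and 1, 1 of 9 passed (Ftl1, lower), against 42.0% of all probes (23.2% lower). Since most tested probes differed between label 7 and the others, the counts are given as a description. The median log2 difference of the 9 genes was 1.62 against -0.08 for all probes in label 7 against 1, and 2.46 against -0.05 in label 7 against 5. These comparisons share the untreated arrays of label 7. The counts of 7, 8 and 1 were the same with untreated array 2 of labels 1 and 5 left out. With untreated arrays 1 and 3 left out, each of these labels keeps 1 untreated array, so those counts are not given. Hepatocyte markers moved with the same division of labels, as given above, and their part in the iron gene levels was not tested.

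**Figure D2:**
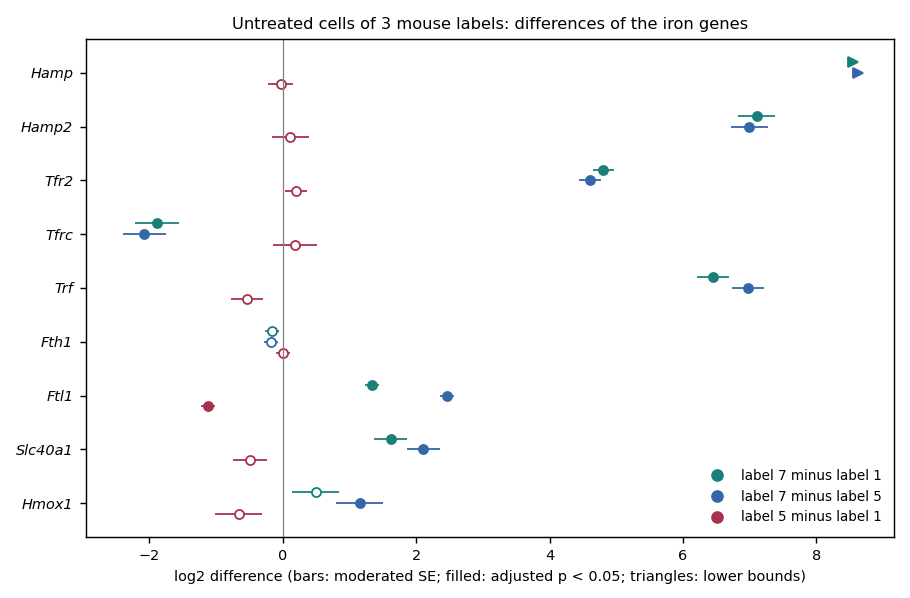
Log2 difference (horizontal axis) of each iron gene between untreated cells of 2 mouse labels, with the moderated SE as bars and filled points where the adjusted p is below 0.05. Triangles are lower bounds, drawn for Hamp in label 7 against 1 and against 5, where it was not detected on the dim arrays; label 7 against 1 and label 7 against 5 lie at -1.88 and -2.07 for Tfrc and close to 0 for Fth1; of the differences of label 5 against 1, only that of Ftl1 passed.

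The main question of the design was what Foxd3 shRNA changes. Across the 3 mouse labels, with each label's arms paired, 0 of the 9 iron genes passed the test in limma, against 0.105% of all probes. That share was 26 probes, and 0 probes passed once 46 irregular probes were left out. These had signals of more than 7 digits, or detection p-values off their usual steps or out of line with the signal. An unadjusted p below 0.05 was reached by 0 of the 9 genes, against 5.73% of all probes. In labels 1 and 5 all treated arrays carried Xist, while untreated arrays 1 and 3 carried Eif2s3y. A change by the shRNA there cannot be told apart from this difference in source. The mean log2 changes lay between -0.33 ± 0.35 (SD over 3 labels) for Hamp2 and 0.23 ± 0.35 for Hmox1. Hamp was higher under the shRNA in 3 of 3 labels and Hamp2 lower in 3 of 3, with changes of 0.19 ± 0.15 and -0.33 ± 0.35, but in labels 1 and 5 these probes were at or near background. The median change of the 9 genes was 0.08 against -0.01 for all probes.

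In label 1, Trf rose under the shRNA and was the only iron gene to pass, 1 of 9 against 0.737% of all probes (0.58% higher). Its normalised log2 signals were 8.62, 7.97 and 8.24 untreated and 8.93, 9.40 and 9.66 treated, without overlap. The change was 1.05 ± 0.24, a ratio of 2.08 (adjusted p = 0.0458). It did not pass when any of treated arrays 2 or 3 or untreated arrays 2 or 3 was left out (adjusted p of 0.199, 0.129, 0.152 and 0.167). With the array number as a replicate block the Trf change also did not pass. Deviations of same-numbered arrays from their group means correlated above 0 in 8 of 9 pairs, against 4 of 18 other pairs. Without the Eif2s3y-carrying untreated arrays 1 and 3 of labels 1 and 5, which leaves 1 untreated array per label, the Trf change was 1.37. Without the Xist-carrying untreated array 2 it was 0.90 ± 0.25 (adjusted p = 0.112). In the same arrays the summed signal of the 10 skeletal muscle markers was 25652 to 84458 treated and 70.4 to 18435 untreated, and that of the brown fat markers 54848 to 58515 treated and 33599 to 53074 untreated; their part in the Trf change was not tested. The Trf change was -0.39 ± 0.24 in label 5 (adjusted p = 0.621) and -0.05 ± 0.24 in label 7 (adjusted p = 0.999), and the difference in effect between labels had an unadjusted p of 0.00121 and an adjusted p of 0.154.

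In label 5, 0 of 9 genes passed in limma, against 0.25% of all probes, and 0 had an unadjusted p below 0.05, against 10.8%. Without the irregular probes, the number of all probes that passed fell from 62 to 22. Leaving out untreated arrays 1 and 3, which carried Eif2s3y, leaves 1 untreated array in label 5, so the counts of that fit are not given. With all arrays, the largest change in label 5 was that of Tfrc, at 0.49 ± 0.33 (adjusted p = 0.656). Hamp, Hamp2, Tfr2 and Hmox1 were near background in label 5, detected on 2, 3, 4 and 1 of 6 arrays. A change in these genes could hardly be read there.

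In label 7, where hepcidin, transferrin and ferroportin transcripts were abundant, 0 of 9 genes passed in limma, against 0.83% of all probes. An unadjusted p below 0.05 was reached by 3 of 9 (Hamp2, Slc40a1 and Ftl1), against 9.40% of all probes. Slc40a1 had normalised log2 signals of 12.06, 11.999 and 11.74 untreated and 12.98, 12.44 and 12.19 treated, a difference of 0.60 ± 0.25 (adjusted p = 0.429). Ftl1 had 14.07, 13.95 and 14.07 untreated and 13.87, 13.77 and 13.75 treated, a difference of -0.24 ± 0.10 (adjusted p = 0.470). Tfrc had 9.19, 9.25 and 9.37 untreated and 8.66, 8.67 and 8.48 treated, a difference of -0.67 ± 0.33 (adjusted p = 0.558). The arms of these genes did not overlap on the normalised scale, but how many of all probes separate in this way was not counted. None of the 3 differences passed. Hamp2 gave -0.73 ± 0.28 (adjusted p = 0.356) with overlapping arms, while Hamp gave 0.21 ± 0.18 (adjusted p = 0.873). The macrophage and Kupffer cell markers summed to 5878 to 11849 treated and 5099 to 6232 untreated in label 7. All but Lyz2 (2312 against 2438) averaged higher on the treated arrays, among them Marco (690 against 122) and Adgre1 (588 against 240). The part of these markers in the Slc40a1 values was not tested.

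The effect of the shRNA was also compared between labels. In this interaction test 0 of 9 iron genes passed in limma, against 0.218% of all probes. An unadjusted p below 0.05 was reached by 2 of 9, Trf and Tfrc (0.0499, adjusted p = 0.480), against 10.4% of all probes. Leaving out untreated arrays 1 and 3 of labels 1 and 5 leaves 1 untreated array in each of these labels. That fit has no spread of its own in these groups, so its calls are not given.

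**Figure D3:**
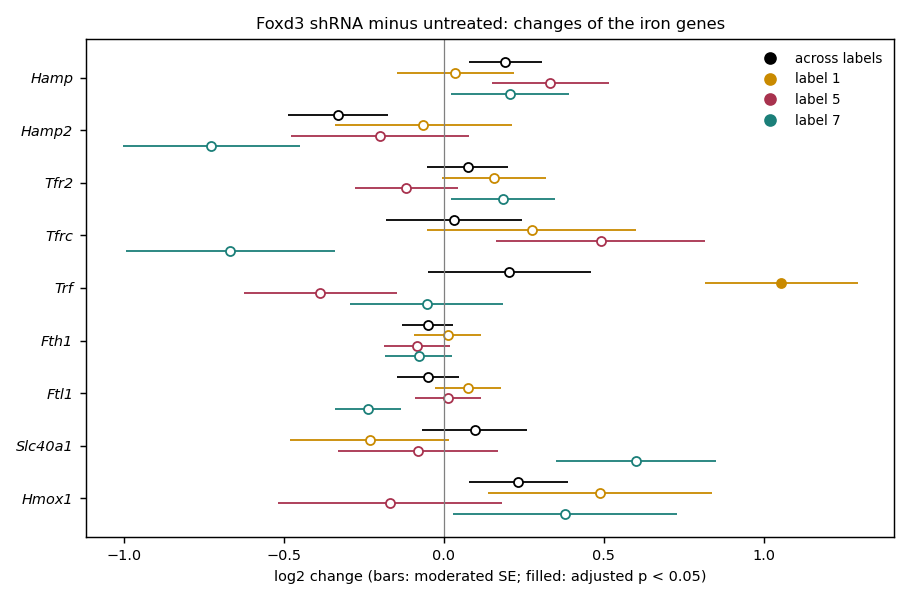
Log2 change under Foxd3 shRNA (horizontal axis) of each iron gene across the mouse labels and within each label, with the moderated SE as bars and filled points where the adjusted p is below 0.05. Trf in label 1, at 1.05, is the only filled point; Tfrc and Hamp2 lie below 0 and Slc40a1 above 0 in label 7 without passing.

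Other genes of iron and haem handling were read from 6 lists, for which counts are of genes with a tested probe. Their counts are a description, since 55.9% of all probes passed between untreated labels 7 and 1 (25.1% higher, 30.8% lower) and 63.6% between labels 7 and 5 (30.8% higher, 32.8% lower). Among 19 regulators of hepcidin, 4 were higher and 8 lower in untreated label 7 than in label 1, with a median log2 difference of -0.33 (-0.21 with undetected genes at their bound) against -0.08 for all probes. Tmprss6, a liver protease known to restrain hepcidin, was at least 24.8-fold higher and was not detected on the untreated arrays of label 1. Il6ra, the interleukin 6 receptor, was higher by 2.43 ± 0.24 and Hfe, a partner of the transferrin receptors, by 2.04 ± 0.20. Bmp6, a ligand that induces hepcidin, was at least 2.56-fold lower. Against label 5, 4 were higher and 11 lower, Erfe, the erythroid hormone that lowers hepcidin in mice, at least 9.40-fold lower. With median scaling of the arrays in place of quantile normalisation the counts became 4 higher and 2 lower against label 1, and 4 and 6 against label 5.

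Among 14 iron transport genes, 7 were higher and 3 lower in untreated label 7 than in label 1, against 25.1% and 30.8% of all probes, with a median of 0.52 (0.49 with undetected genes at their bound). Median scaling gave 9 higher and 3 lower. Cp, the plasma ferroxidase ceruloplasmin, was higher by 4.95 ± 0.17 (adjusted p = 5.61e-15) and Lcn2, which binds bacterial iron carriers, by 3.73 ± 1.21 (adjusted p = 0.0134). Heph, the membrane ferroxidase of the intestine, was lower by a log2 difference of -2.75 ± 0.21, and Steap4, a metalloreductase, was at least 3.44-fold lower.

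Among 9 genes of iron sensing and ferritin handling, 0 were higher and 5 lower in label 7 than in label 1, beside 55.9% of all probes, with a median of -0.49. Aco1, which encodes iron regulatory protein 1, gave -1.69 ± 0.24, and Ireb2, which encodes iron regulatory protein 2, gave -0.62 ± 0.19. The iron-sulphur cluster genes Iscu and Nfs1 gave -1.40 ± 0.10 and -1.30 ± 0.12. Median scaling changed this to 3 higher and 3 lower, and Ireb2 no longer passed (-0.22, adjusted p = 0.346). Against label 5, 2 were higher and 3 lower, beside 63.6% of all probes, and median scaling made this 5 and 1. There Aco1 had the other sign, at 1.13 ± 0.24 (adjusted p = 0.000408), Ncoa4, a receptor for the breakdown of ferritin, gave 0.93 ± 0.27 (adjusted p = 0.00644) and Nfs1 again lay below 0, at -1.71 ± 0.12.

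Among 8 haem synthesis genes, 2 were higher and 1 lower in label 7 than in label 1, beside 55.9% of all probes, Cpox by 2.13 ± 0.22, Alad by 0.93 ± 0.15 and the erythroid enzyme gene Alas2 by -1.63 ± 0.47. Median scaling gave 4 higher and 0 lower, and Alas2 no longer passed (-0.92, adjusted p = 0.110). Among 11 genes of haem uptake, export and breakdown, 6 were higher and 2 lower, against 25.1% and 30.8% of all probes, with a median of 0.87, and median scaling gave 7 and 1. Hpx, the plasma haem carrier hemopexin, was at least 855-fold higher in label 7 than in label 1, and Hp, the haemoglobin carrier haptoglobin, was higher by 3.72 ± 0.27 (adjusted p = 8.29e-10). The haem transporter genes Flvcr2 and Flvcr1 differed in opposite directions, by 2.12 ± 0.18 and -1.64 ± 0.28. Among 10 genes of the Nrf2 and Bach1 response, which also governs Hmox1, 7 were higher and 1 lower, against the same shares, with a median of 0.97 (0.90 with undetected genes at their bound), and median scaling gave 8 and 1. Nqo1 and Gclm were both higher by 2.31 and Txnrd1 was lower at -1.58 ± 0.18. Of 6 measured red cell markers, 4, 4 and 3 were detected on all arrays of labels 1, 5 and 7, with summed signals of 24021 to 31202, 16675 to 29657 and 10044 to 18385. Most of each sum was the globin gene Hba-a1, averaging 24919, 22565 and 12081. Hbb-b2 was detected on all arrays of labels 1 and 5 and on 0 of 6 of label 7, while Klf1 was detected on 0, 1 and 6 of 6 arrays. Their part in the haem gene values was not tested.

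Under Foxd3 shRNA, 5 of these 6 lists had 0 genes past the test in limma across labels and within labels 1, 5 and 7. Of the 71 tested genes of the lists, 4 had an unadjusted p below 0.05 across labels, 9 in label 1, 8 in label 5 and 11 in label 7, against 5.73%, 9.99%, 10.8% and 9.40% of all probes. The exception was the list of haem uptake, export and breakdown in label 7, where 1 of 11 passed, against 0.83% of all probes: Flvcr2 rose by 0.77 ± 0.18 (adjusted p = 0.04997). Its signals averaged 215 ± 89.5 treated and 115 ± 24.0 untreated (SD, n = 3). Leaving out any of 5 of the 6 arrays ended the call, with adjusted p up to 0.239, and so did median scaling (adjusted p = 0.0757). Lcn2 moved by 2.43 ± 1.21 in label 7 (adjusted p = 0.566) and by -2.30 ± 1.21 in label 1 (adjusted p = 0.569), neither past the test.

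**Figure D4:**
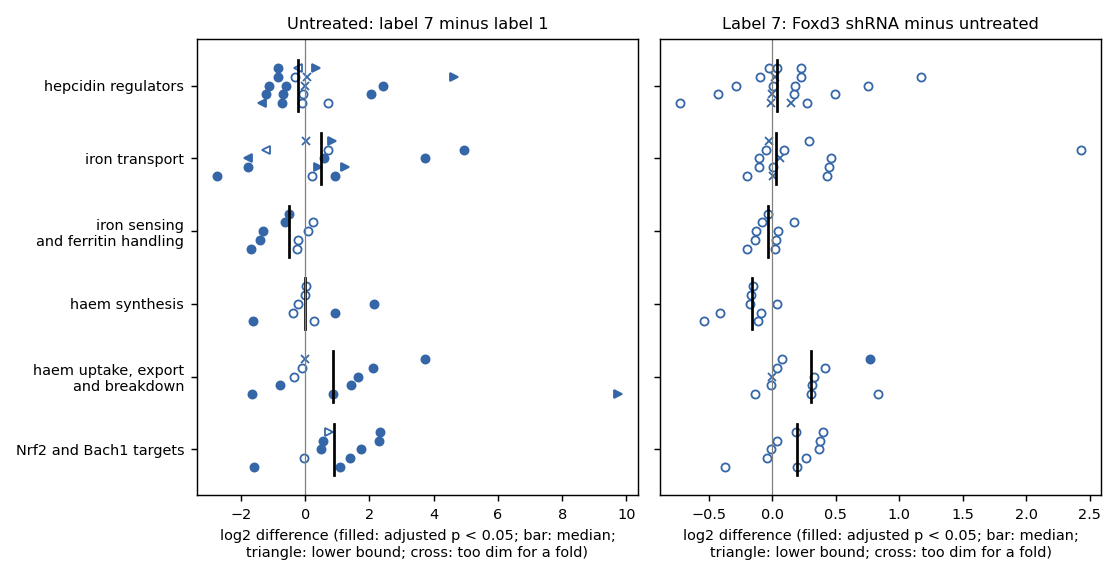
Log2 difference (horizontal axis) of each tested gene in 6 lists of iron and haem genes, for untreated label 7 minus label 1 and for Foxd3 shRNA minus untreated in label 7. Filled symbols passed the adjusted p of 0.05, bars are list medians, triangles are lower bounds where 1 group did not detect the probe (Hpx lies farthest to the right in the left panel) and crosses are genes too dim for a fold; in the right panel only Flvcr2 is filled.

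Probes whose normalised signal ran most like that of each iron gene over the 18 arrays are given as a description. The arrays share 3 mouse labels whose means lie far apart for most of these genes. Hamp was most like Foxa3, Cyp2a5 and Apof (Pearson r = 0.999 for each), Hamp2 like Golt1a, Tmprss6 and Spp2 (0.996), and Tfr2 like Itih1, Ahsg and Gltpd2 (0.998). Trf was most like Gsta3 (0.992), Slc25a10 and Akr1c12 (0.991). Ftl1 was most like Cyb5a (0.991), Cib1 (0.991) and Copz1 (0.988), Slc40a1 like Fcgr4 (0.982), Mlkl (0.981) and Slc15a3 (0.980), and Tfrc like Kifap3 (0.961), Psmg2 (0.960) and Qrsl1 (0.957). Fth1 and Hmox1 had looser neighbours, Adam10 (0.827), Fn3k (0.809) and Dll3 (0.806) for Fth1, and Apobec1 (0.879), Tyk2 (0.874) and Tor4a (0.861) for Hmox1. With the mean of each label taken away, Fcgr4 was the only gene named for the same iron gene again, with Slc40a1 (r = 0.831 over 18 arrays).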

How the data were processed

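RNA was measured on 18 single-colour bead arrays. Per the file headers, the authors deposited 2 columns per array, a signal intensity (non-normalised, background already subtracted, since 23.2% to 30.9% of an array's signals lay below 0) and a detection p-value. A second deposited signal intensity, in the series matrix, equalled the first times 1 of 18 factors (0.733 to 1.525) cycling down the rows, and was used only as an alternative. Software and settings are not given in the sources used here. Mean signals per array were 181 to 294, and 17289 to 19993 probes were detected per array (detection p below 0.05). The number of arrays limits the precision.

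The function neqc (offset 16) of limma 3.58.1 in R 4.3.3 (statmod 1.5.0) used the detection p-values to correct the background, then quantile normalised the signals and took log2. Probes detected on at least 3 arrays were tested, 24817 in all. The effect across labels was fitted on 6 group means with the mouse label as a term, and the other comparisons on 18 arrays with 6 group means (lmFit and eBayes, trended), two-sided, with p-values adjusted by Benjamini and Hochberg over all 24817 probes and a threshold of 0.05. The fits were tested on simulated data. Python 3.11.15 with pandas 2.3.3, numpy 2.4.6 and matplotlib 3.10.9 served for the rest.

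Symbols came from the platform annotation (34885 probes with 1 symbol, 18 with several, 10378 with none). The probe with the highest mean signal stood for a gene, and 5 list genes were matched by an older or newer symbol. The text names the 9 members, up to 4 genes per list and comparison past the threshold with the largest change (or up to 2 where none passed), the 3 genes most like each member, and Foxd3, Cdcp1, Xist and Eif2s3y as checks. Members and lists were chosen with earlier results of these data known. Sequences came from the RefSeq promoter table. Alternatives covered the offset, background correction, scaling, source table, probe filter, irregular probes, probe averaging, left-out arrays and labels, and the array number as a block. A further allele of the genotype is not reported here.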

Additional observations from a re-analysis of the deposited data

How the results depend on the processing

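Of 17 member differences past the threshold, 16 passed under every alternative that could be fitted and 17 kept their sign. The exception was Trf in label 1, positive under 17 of 17 alternatives (0.89 to 1.37) but past the threshold in 6 (adjusted p 0.00649 to 0.315). The number of members called under the shRNA in label 1 was thus 0 in place of 1 without background correction, with the series matrix, with probes detected on all arrays, without irregular probes, with untreated array 2 of labels 1 and 5 left out, with the probe mean per gene and with the array number as a replicate block (Trf adjusted p = 0.0550), and 0 to 1 with single arrays left out. Untreated label 5 against 1 gave 2 in place of 1 without background correction, with median scaling, with the series matrix and with the replicate block, and 1 to 2 with single arrays left out (2 without untreated array 2 or 3 of label 1). The added gene was Hmox1, Trf or Slc40a1. With probes detected on all arrays, 5 members were tested, and 4 passed in label 7 against 1 and 4 against 5. With the probe mean per gene the counts were 8 and 9, since Fth1 passed too. Leaving out untreated arrays 1 and 3 of labels 1 and 5 leaves 1 untreated array in each of these labels. In that fit Tfrc, at 0.19 in untreated label 5 against 1, turned to -0.96. Iscu in label 7 against 5 went from -0.82 to 0.0535 (adjusted p = 0.782) with median scaling. Median scaling also moved the share of higher calls among all probes from 44.8% to 58.9% in label 7 against 1 and from 48.4% to 62.4% in label 7 against 5, and the median of all probes there from -0.05 to 0.13. Counts over all probes ranged from 0 to 50 across labels and 56 to 375 in label 7. Their lowest values were 36 in label 1, 22 in label 5 and 11 in the interaction. The highest counts of these 3 came from the fit with 1 untreated array in labels 1 and 5 and are not given. In the untreated comparisons the counts fell to 6499, 7571 and 8096 with probes detected on all arrays. The array numbers were not taken as pairing the arms: same-numbered arrays correlated at -0.02 to 0.26 in their deviations from the group means, above 0 in 8 of 9 pairs but above 0.1 in 6, other pairs above 0 in 4 of 18, and 14 of 18 arrays correlated best with their own number. Where neither value passed the threshold, sign changes were not counted.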
